A study of Mus musculus with 2 samples.

Results

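The 9 genes Sst, Nts, Npy, Tac1, Penk, Cck, Gal, Cartpt and Vip, which encode neuropeptide precursors, were followed through 10 cell populations of a mouse embryo data set, inside neurons and outside them. They were taken by symbol, and all 9 were present among the 32285 genes of the count table. Single cells had come from trunks and limbs of decapitated and eviscerated embryos at E14, that is, embryonic day 14. They had been sorted for tdTomato (tdT), a red fluorescent reporter that is switched on for good in cells in which Cre recombinase has been active and in their descendants. Cre was driven by Myf5, a gene of early muscle precursors, so the sorted cells were those with a history of Myf5-Cre activity. All embryos carried Myf5-Cre and the tdT reporter, and their Srsf2 gene, which encodes a splicing factor, had either both alleles flanked by loxP sites (SRSF2f/f/Myf5-Cre/tdT) or 1 such allele and 1 wild-type allele (SRSF2f/w/Myf5-Cre/tdT). There was 1 library per genotype, made with a 3' kit in which each captured mRNA molecule is counted once as a unique molecular identifier (UMI).

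Neuropeptides are made as longer precursors in the endoplasmic reticulum, cut by prohormone convertases and trimmed by carboxypeptidases on the way to dense-core granules, and released from these granules to act on G-protein-coupled receptors of nearby or distant cells. Neurons use them beside fast transmitters, and a given peptide marks certain classes of neuron: vasoactive intestinal peptide (Vip) and neuropeptide Y (Npy) are known from autonomic neurons, and galanin (Gal) and substance P, which is encoded by Tac1, from sensory neurons. The same genes are also used by endocrine cells of the gut and by some cells that are neither neuronal nor endocrine.

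The title of each sample gave its genotype, but some other sources went against it. The run name in the deposited summary of the library titled f/f was that of a wild-type sample, the run name of the library titled f/w was that of a knockout, and headings in the study's own quality summary were also opposite to the titles. Levels are given as CPM, the UMIs of a gene summed over a group of cells and scaled to a common total for all genes. Srsf2 stood at 219 CPM in the library labelled f/f and at 153 CPM in the library labelled f/w, the lower level being in the library whose label keeps a wild-type allele. Muscle made up 17.2% of the kept cells in the library labelled f/f and 1.07% in the library labelled f/w. The libraries are therefore called "the library labelled f/f" and "the library labelled f/w" below, and no direction between them is read as an effect of the genotype. The quality filter left 12523 of 15268 and 10342 of 12498 cell barcodes, with a median of 10751 and 9480.5 UMIs per kept cell. The libraries shared 74 barcode sequences. With 1 library per genotype there was no replicate, and all intervals below are 95% intervals that cover counting error only.

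Cells were assigned to 10 populations by UMI limits on a few marker genes, none of which is a neuropeptide gene. Neurons were cells with at least 5 UMIs of Tubb3, Stmn2 and Elavl3 together. Cells that met the limits of 2 or more populations, which include doublets, numbered 1787 in the library labelled f/f and 1623 in the library labelled f/w, and they were left out of every population. This left 845 of 2060 and 878 of 2036 cells that met the cartilage limit. For mesenchyme it left 3325 of 4989 and 1918 of 3368. For neurons it left 469 of 786 in the library labelled f/f and 851 of 1203 in the library labelled f/w. All 8 neuronal check genes that the limit did not use, among them Snap25 and Syt1, were highest in the neurons in both libraries. Check genes of the other 9 populations were also highest where they belong, except Postn, which in the library labelled f/w was higher in the Schwann lineage than in mesenchyme. The 111 muscle cells of the library labelled f/w compare with 2150 in the library labelled f/f, so muscle values of the former are less precise. A further 3334 kept cells of the library labelled f/f (26.6%) and 3522 of the library labelled f/w (34.1%) met no limit. These cells, and those that met 2 or more limits, count among all other kept cells in the ratios below.

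Of the 9 genes, 5 (Sst, Npy, Gal, Cartpt and Vip) had their highest level in neurons in both libraries. The other 4 were highest elsewhere in both: Nts in lymphatic endothelium, Tac1 in mesenchyme, Penk in cartilage and Cck in muscle. The 5 genes highest in neurons were also those at least 4-fold higher in neurons than in all other kept cells in both libraries, against 7.73% of the 15274 genes compared in this way. Nts passed the same 4-fold limit for lymphatic endothelium (background 1.81%) and Cck for muscle (background 1.09%). Tac1 did not pass it for mesenchyme (background 0.727%) (3.90-fold and 2.45-fold), nor Penk for cartilage (background 0.249%; 2.69-fold and 2.36-fold).

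**Figure D1:**
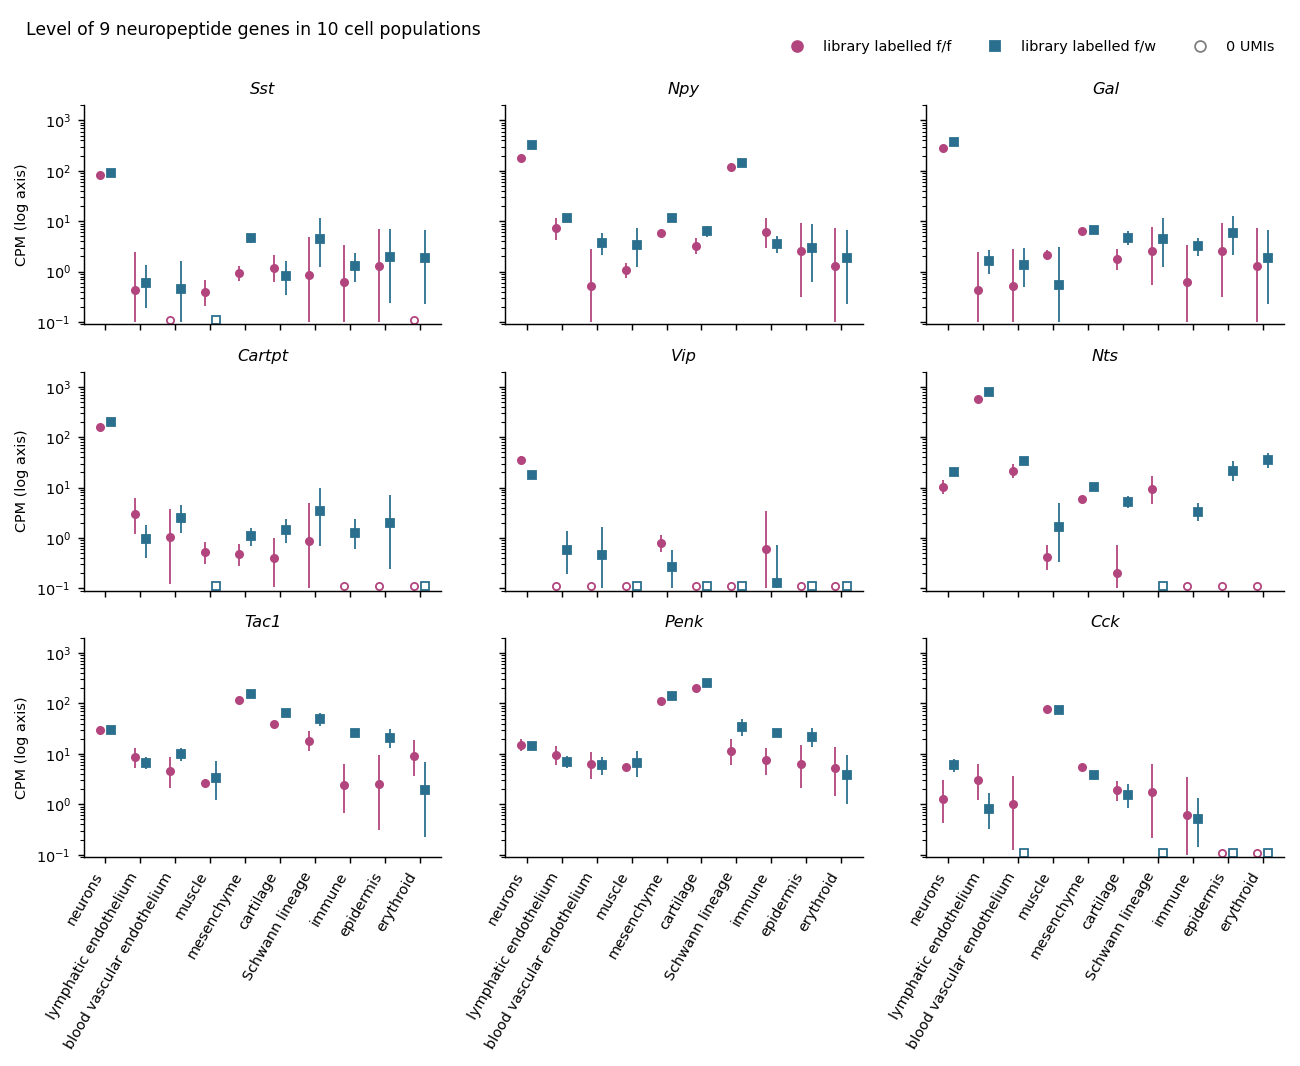
Level of each gene (CPM, log axis) in the 10 populations. Circles are the library labelled f/f and squares the library labelled f/w, bars are exact Poisson 95% intervals (cut at the lower end of the axis), and open symbols at the bottom stand for 0 UMIs. Sst, Npy, Gal, Cartpt and Vip peak in neurons, Nts in lymphatic endothelium, Tac1 in mesenchyme, Penk in cartilage and Cck in muscle.

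The genes lie on 7 chromosomes. Sequence upstream of their start sites was read from RefSeq promoters (GRCm38.p6), which hold 8 of the 9 genes. Penk has no entry there. The cAMP response element (CRE), the letters TGACGTCA, is a palindrome bound by CREB-family factors and was first described in the Sst promoter. It was searched in the 250 bases before each start, on both strands, with its shorter core TGACG, which the full element contains. The full element stood in 2 of the 8 promoters, those of Sst and Cartpt, and in 1.55% of 32851 promoters. The core stood in 6 of the 8 and in 17.8% of all. TATAAA, searched on the gene's own strand, stood in that of Vip alone among the 8 and in 7.59% of all promoters. The 7 sites in these 6 promoters are printed because they are the stretches that genes highest in neurons (Sst, Cartpt, Vip) and genes highest elsewhere (Nts, Cck, Tac1) share, each as 30 bases in the direction of the gene with the core or full element in capitals, read on either strand.
Sst, chr16:23890874-23890903, minus strand, 48 bases before the start: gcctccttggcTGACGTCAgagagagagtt
Cartpt, chr13:99900777-99900806, minus strand, 112 bases before the start: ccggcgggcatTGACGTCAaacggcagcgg
Vip, chr10:5639128-5639157, plus strand, 79 bases before the start: gatcactactgTGACGtctttcggggagcc
Nts, chr10:102490566-102490595, minus strand, 166 bases before the start: ttagggaagatCGTCActttccatcaaggt
Cck, chr9:121495723-121495752, minus strand, 47 bases before the start: ctgctggactgCGTCAgcactgggtaaaca
Tac1, chr6:7554853-7554882, plus strand, 197 bases before the start: ccctaaaattgCGTCAtttcgaacacaatt
Tac1, chr6:7555007-7555036, plus strand, 43 bases before the start: ctctacaggctCGTCAcgcctgagataaat
The printed stretches of Sst, Cartpt and Tac1 overlap a 5' untranslated region of a GENCODE transcript that starts further upstream than the RefSeq start. In the first stretch of Tac1 the overlap covers only the last bases and not the core, because the GENCODE gene starts at chr6:7554879. Both kinds of gene, those highest in neurons and those highest elsewhere, hold the core, and no binding was measured here.

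Sst (chr16:23889573-23890958, minus strand) encodes somatostatin, which dampens hormone and transmitter release. Its level in neurons was 80.9 CPM (72.1 to 90.4) in the library labelled f/f and 88.9 CPM (82.5 to 95.6) in the library labelled f/w. In the other 9 populations it lay between 0 and 1.29 CPM and between 0 and 4.56 CPM, and no neighbours in the order of these 9 differed beyond counting error in either library. The neurons were thus 55.8-fold and 15.5-fold above all other kept cells. The highest value outside neurons, 4.56 CPM in mesenchyme of the library labelled f/w, came to 66.7% from 1 cell with 70 UMIs. Cartilage of that library, further down the order, lay below this value (log2 ratio -2.48, interval -3.73 to -1.45). Sst was found in 7.68% and 11.0% of neurons, against 0.512% of muscle cells in the library labelled f/f and 0 of 111 in the library labelled f/w, where a count of 0 allows up to 2.70% of cells with a UMI (3 cells of 111, for counting error only), although muscle cells were sequenced more deeply (median 14519 and 15673 UMIs, against 6519 and 7173 in neurons).

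Npy (chr6:49822710-49829507, plus strand) encodes neuropeptide Y, a cotransmitter of sympathetic neurons. It stood at 176 CPM (163 to 189) in neurons of the library labelled f/f and at 331 CPM (319 to 344) in those of the library labelled f/w. The neurons were 22.9-fold and 18.6-fold above all other kept cells. Next in order came the Schwann lineage, the glia of peripheral nerves and their precursors, with 120.0 CPM (101 to 142) and 144 CPM (120.1 to 171). In both libraries it lay below neurons and above the following population beyond counting error. Over all other kept cells the Schwann lineage was 10.8-fold higher in the library labelled f/f and 3.79-fold in the library labelled f/w, so it did not pass 4-fold in both (background 1.85%). Npy was detected in 27.0% and 40.0% of cells of the Schwann lineage and in 17.9% and 28.4% of neurons. After each cell was thinned to 2000 UMIs, leaving out shallower cells (6 and 26 neurons and no cell of the Schwann lineage), these shares were 13.5% and 21.2%, and 11.2% and 20.1%.

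Gal (chr19:3409915-3414544, minus strand), which encodes galanin, had the most neuronal UMIs of the 9 genes in both libraries (3' UMIs do not scale with transcript length). It reached 289 CPM (272 to 306) in the library labelled f/f and 368 CPM (355 to 381) in the library labelled f/w. These UMIs came from 12.8% and 20.4% of the neurons, so most neurons had none. Mesenchyme was next, with 6.43 and 6.73 CPM, and no neighbours in the order below neurons differed beyond counting error. Cartilage, further down the order, lay below mesenchyme in both libraries (log2 ratio -1.84, interval -2.62 to -1.15, and -0.52, interval -1.03 to -0.04). The neurons were 36.1-fold and 18.2-fold above all other kept cells.

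Cartpt (chr13:99898489-99901091, minus strand) encodes the precursor of cocaine- and amphetamine-regulated transcript peptides. Its level in neurons was 158 CPM (145 to 171) and 200 CPM (190.0 to 209). It did not exceed 3.37 CPM in any other population, and no neighbours below neurons differed beyond counting error. Populations further apart in the order are not covered by this. Lymphatic endothelium held 3.03 CPM (7 UMIs) and mesenchyme 0.474 CPM (18 UMIs) in the library labelled f/f. In the library labelled f/w they held 0.935 and 1.09 CPM. The ratio of neurons to all other kept cells was 132-fold in the library labelled f/f and 21.9-fold in the library labelled f/w. In the latter, 464 UMIs lay in 1 cell that had met the limits of 2 or more populations and so counted among the other cells.

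Vip (chr10:5639218-5647617, plus strand) encodes vasoactive intestinal peptide, which relaxes smooth muscle and widens vessels. It was the scarcest of the 5 genes in neurons, at 35.6 CPM (29.9 to 42.1) and 17.9 CPM (15.1 to 21.0). It was found in 2.35% and 3.06% of neurons. A single neuron of the library labelled f/f held 35.8% of the neuronal UMIs. No UMI was counted in any of the 2150 muscle cells of the library labelled f/f, where a count of 0 allows up to 0.140% of cells with a UMI (3 cells of 2150, for counting error only).

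**Figure D2:**
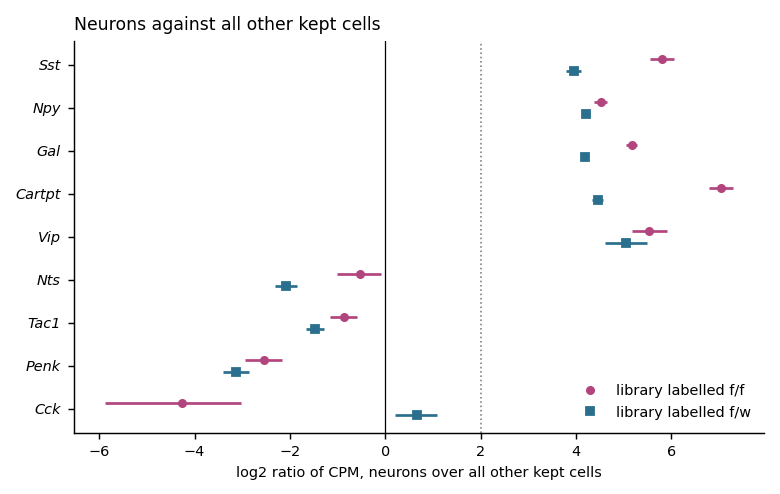
Log2 ratio of the level in neurons to that in all other kept cells for each gene, with exact 95% intervals for counting error. Circles are the library labelled f/f, squares the library labelled f/w, the solid line marks equal levels and the dotted line 4-fold. Sst, Npy, Gal, Cartpt and Vip lie right of the dotted line in both libraries, Nts, Tac1 and Penk lie left of 0 in both, and Cck lies on opposite sides of 0.

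Nts (chr10:102481756-102490486, minus strand) encodes neurotensin, a peptide of brain and gut endocrine cells. Its level in lymphatic endothelium, the cells that line lymph vessels, was 576 CPM (546 to 608) in the library labelled f/f and 782 CPM (764 to 801) in the library labelled f/w. This was the highest level of any of the 9 genes in any population. It was 92.4-fold and 27.5-fold above all other kept cells, and 55.4-fold and 38.7-fold above neurons, where Nts stood at 10.4 and 20.2 CPM. Nts was detected in 73.6% (65.8 to 80.5) and 88.5% (85.3 to 91.3) of the lymphatic cells, which were 148 and 470 in number. It was thus found in most cells of the population and not in a few of high level: the cell with the most UMIs held 7.29% and 1.88% of them. In muscle, which was sequenced to a like depth, 0.605% and 2.70% of cells had a UMI.

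Among endothelial cells, Nts separated lymphatic from blood vascular cells. The latter held 21.6 and 33.2 CPM and were 26.7-fold and 23.6-fold below. Neurons were below blood vascular cells in the library labelled f/f beyond counting error. In the library labelled f/w the populations that followed lymphatic endothelium (erythroid cells, blood vascular endothelium, epidermis and neurons) did not differ from one to the next beyond counting error, and 70.3% of the erythroid UMIs lay in 1 cell. Neurons of that library were also below its blood vascular cells. They held 20.2 CPM (17.3 to 23.5) against 33.2 CPM (28.0 to 39.1), intervals that do not overlap.

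Within the lymphatic endothelium, dividing cells did not differ from the rest in the same way in both libraries. In the library labelled f/f, cells with at least 3 UMIs of the proliferation genes Mki67 and Top2a together had 662 CPM of Nts and those with none 347 CPM. In the library labelled f/w, the values were 683 and 945 CPM. The order of dividing and other cells was therefore opposite in the 2 libraries.

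Tac1 (chr6:7554879-7565834, plus strand) encodes the precursor of substance P and neurokinin A. In mesenchyme, the connective tissue cells marked by Pdgfra, Dcn and Lum, it reached 119 CPM (115 to 122) and 155 CPM (149 to 160). Neurons stood at 29.1 and 30.2 CPM, 4.07-fold and 5.12-fold lower. Cartilage was second in both libraries with 39.9 and 63.5 CPM. In the library labelled f/w it did not exceed the Schwann lineage (48.3 CPM) beyond counting error (log2 ratio 0.39, interval -0.05 to 0.88). The Schwann lineage lay above neurons in that library (log2 ratio 0.68, interval 0.18 to 1.15), but not in the library labelled f/f (18.3 CPM). Tac1 was detected in 31.1% and 34.5% of mesenchymal cells, against 3.07% of muscle cells in the library labelled f/f. The 26.3 CPM of immune cells in the library labelled f/w came to 67.8% from 1 cell with 139 UMIs, and immune cells of the library labelled f/f stood at 2.47 CPM.

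Penk (chr4:4133531-4138819, minus strand) encodes proenkephalin, the source of opioid enkephalins. Its level was 207 CPM (198 to 216) and 252 CPM (242 to 262) in cartilage, and 110.0 CPM (107 to 113) and 144 CPM (139 to 149) in mesenchyme. Cartilage exceeded mesenchyme by 1.88-fold and 1.75-fold. Neurons were 13.7-fold and 17.4-fold below cartilage, at 15.1 and 14.5 CPM. Most cartilage cells, 59.3% and 60.4%, had a UMI of Penk, and after thinning to 2000 UMIs 28.3% and 28.5% did. Penk overlaps A830012C17Rik on the opposite strand, and the strand setting of the counting is not given in the sources used here. Cells that met 2 or more limits held 34.3% and 37.2% of the Penk UMIs of their library.

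Cck (chr9:121489824-121495694, minus strand) encodes cholecystokinin, a gut hormone and one of the most abundant neuropeptides of the adult brain. Its level in muscle was 77.4 CPM (74.5 to 80.5) in the library labelled f/f and 74.0 CPM (62.0 to 87.6) in the library labelled f/w, so the muscle cells of both libraries did not differ beyond counting error (log2 ratio of f/f over f/w 0.07, interval -0.19 to 0.33). Cck was found in 38.7% and 35.1% of muscle cells, and in 1.07% and 1.41% of neurons. Only 5 neuronal UMIs were counted in the library labelled f/f. The 49 of the library labelled f/w lay in 12 cells, and 14 of them in 1 cell. The level of muscle was 59.6-fold and 12.4-fold above that of neurons. The next level was that of mesenchyme in the library labelled f/f (5.56 CPM) and of neurons in the library labelled f/w (5.97 CPM).

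Inside muscle, Cck was present in precursors and in differentiating cells. Cells with Pax7 and no Myog, which are myogenic precursors, had 86.3 CPM (81.1 to 91.7) in the library labelled f/f, where there were 755 of them, and 32.8 CPM (19.1 to 52.5) in the library labelled f/w, where there were 33. Cells with at least 3 UMIs of Myog and no Pax7, which are differentiating, had 95.9 CPM (90.1 to 102) and 100 CPM (79.0 to 125). Cells without a UMI of Mki67 and Top2a had 125 and 127 CPM, and cells with at least 3 had 55.9 and 34.4 CPM. Cck was thus lower in cycling muscle cells in both libraries. Muscle cells with 5 or more UMIs of Cck, compared with those without any, were led by Hrc, a calcium-handling gene, and Tnni1, a slow troponin gene, and Mymx, a gene of myoblast fusion, was among the 8 leading genes. They were higher by 2.11, 1.71 and 1.46 on the log2 scale in the library labelled f/f and by 2.92, 1.60 and 2.77 in the library labelled f/w. The cells compared were 175 and 1318 in the library labelled f/f, but only 9 and 72 in the library labelled f/w. The values of the latter therefore rest on few cells.

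**Figure D3:**
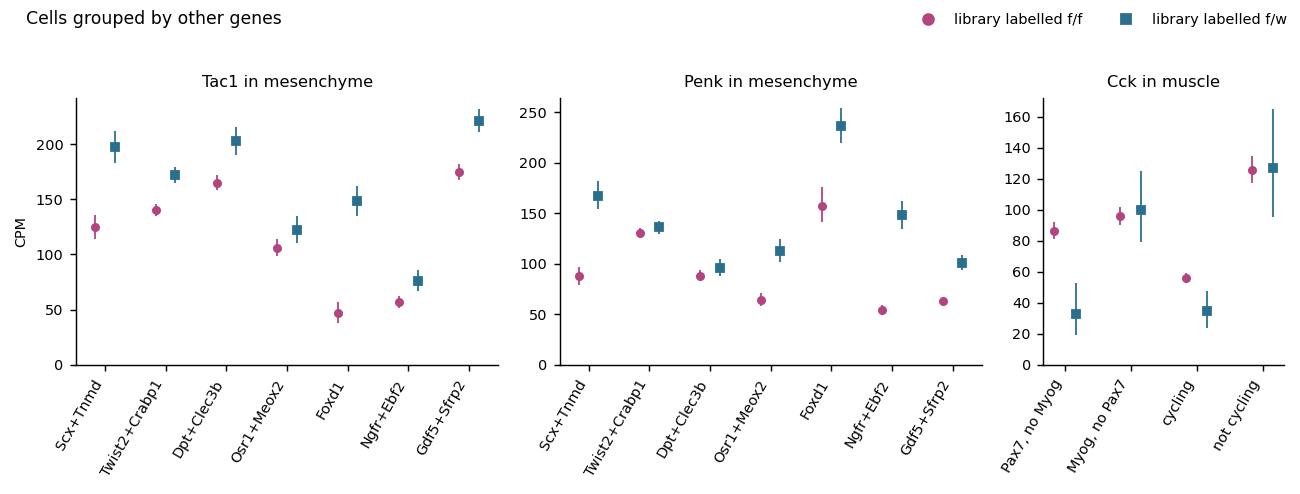
Level (CPM) of Tac1 and Penk in groups of mesenchymal cells with at least 3 UMIs of the genes named under the axis, and of Cck in groups of muscle cells. Circles are the library labelled f/f and squares the library labelled f/w, with exact Poisson 95% intervals. Tac1 is highest in the Gdf5+Sfrp2 group and Penk in the Foxd1 group of both libraries, and Cck is lower in cycling than in non-cycling muscle cells in both.

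Tac1 and Penk were not highest in the same group of mesenchymal cells. Groups of mesenchymal cells were formed by a pair of genes or, for Foxd1, a single gene, after values had been seen. They overlap, and they are given as a description. Which gene of a pair a cell held was not looked at. Tac1 was highest in the group set by Gdf5 and Sfrp2, at 174 and 221 CPM. It was 165 and 203 CPM in cells with Dpt and Clec3b, with intervals that overlap those of the Gdf5 and Sfrp2 cells in both libraries. In cells with Ngfr and Ebf2 it was 56.7 and 75.8 CPM. The largest group, 1697 and 926 cells with Twist2 and Crabp1, held both genes. Tac1 stood there at 140 and 172 CPM and Penk at 130 and 136 CPM. Penk was highest in cells with Foxd1, at 158 and 236 CPM, where Tac1 stood at 46.9 and 148 CPM. In the Gdf5 and Sfrp2 cells Penk stood at 62.6 and 101 CPM. The tendon genes Scx and Tnmd marked cells with 125 and 197 CPM of Tac1 and 87.8 and 167 CPM of Penk.

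RNA set free from broken neurons can give UMIs in other cells, so each level outside neurons was set beside the level that neuron RNA would carry there. The latter is the neuronal level of the gene times the share of neuronal check gene RNA found in that population. This share ran from 0.524% in immune cells to 8.35% in lymphatic endothelium in the library labelled f/f. A pair of gene and population was counted when its level was at least 2-fold above the carried level, with at least 10 UMIs, in both libraries. Of 81 pairs, 18 were counted. The carried level rises with the neuronal level, so a gene with little RNA in neurons passes easily, and the split of the pairs by where a gene is highest (17 of 36 for Nts, Tac1, Penk and Cck and 1 of 45 for the other 5 genes) is largely set by that. The 1 was Npy in the Schwann lineage, 9.83-fold and 6.50-fold above the carried level. Gal in mesenchyme stood at 0.468 and 0.403 times the carried level. One check gene, Gap43, a growth cone gene, was at 371 and 329 CPM in lymphatic endothelium, against 1178 and 1225 CPM in neurons, and made up 92.1% and 89.5% of the check gene level there. Without Gap43, a choice made after values had been seen, the share in lymphatic endothelium was 0.878% and 1.01% and 19 pairs were counted. Npy in the Schwann lineage was then 25.9-fold and 11.2-fold above the carried level, and Npy in lymphatic endothelium 4.78-fold and 3.50-fold, where it had been 0.502 and 0.486 times that level with Gap43. In mesenchyme Gap43 made up 60.1% and 41.9% of the check gene level. Without it Gal in mesenchyme stood at 0.887 and 0.526 times the carried level.

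Free RNA of the population in which a gene was highest could reach the others in the same way. Set against the level carried from there, 8 of the 81 pairs were counted. They included Tac1 in cartilage, 2.62-fold and 2.97-fold above, and Penk in mesenchyme, 20.8-fold and 15.9-fold above. Tac1 in neurons, 3.20-fold and 4.37-fold above, and Nts in neurons, 2.64-fold and 4.12-fold above, were also counted. The neuronal Nts UMIs lay in 7 and 40 neurons, with 42.5% and 27.1% of these UMIs in 1 cell. Nts in mesenchyme, at 1.09 and 0.926 times the level that lymphatic RNA would carry, was not among the 8 pairs. One lymphatic check gene, Pdpn, stood at 65.7 and 75.6 CPM in mesenchyme, against 84.9 and 82.9 CPM in lymphatic endothelium. The carried level in mesenchyme therefore includes RNA that need not come from lymphatic cells. Whether Nts in mesenchyme was carried cannot be told from it, and the level without Pdpn was not tested.

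**Figure D4:**
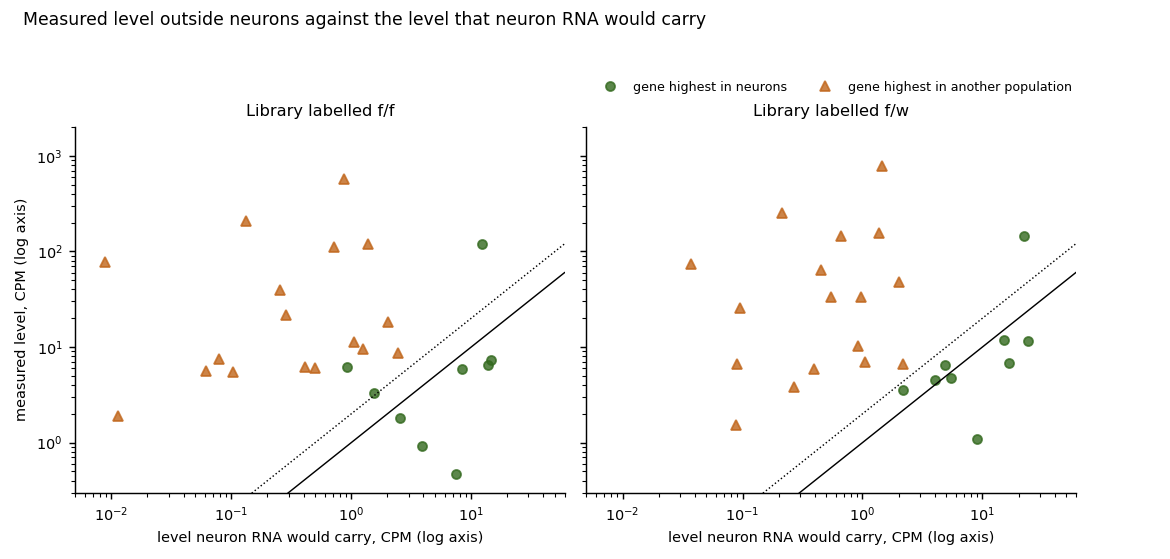
Measured level against the level that neuron RNA would carry (both CPM, log axes) for the 26 pairs of gene and non-neuronal population with at least 10 UMIs in each library. Green circles are genes highest in neurons and orange triangles genes highest in another population, the solid line marks equal levels and the dotted line 2-fold. The orange triangles, which have low carried levels because their genes are low in neurons, lie above the dotted line, and Npy in the Schwann lineage, at 120.0 and 144 CPM, is the 1 green circle above it in both libraries.

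Neurons that used these genes fell into classes. Classes were set by UMI limits on transmitter and lineage genes: 27 and 78 neurons met the sensory limit (Avil and Prdm12), 106 and 217 the autonomic (Dbh, Th and Hand2), 102 and 195 the inhibitory (Gad1, Gad2 and Slc32a1) and 137 and 268 the glutamatergic (Slc17a6). Neurons counted in every class whose limit they met, because 39 and 100 of them met more than 1. None met the cholinergic limit alone in the library labelled f/f, and 2 did in the library labelled f/w. The 149 and 226 neurons without a class had medians of 5718 and 5682.5 UMIs, below those of all neurons.

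Gal was highest in neurons that met the sensory limit. Its level there was 1299.95 CPM (1209 to 1395) in the library labelled f/f and 1187 CPM (1139 to 1237) in the library labelled f/w, and it was detected in 85.2% and 96.2% of these cells. Most of these cells met a further limit as well, and 74.9% and 82.9% of the neuronal Gal UMIs lay in neurons that met more than 1. Autonomic neurons held 565 and 643 CPM, but those that met the autonomic limit alone held 43.4 and 106 CPM. In neurons without a class it was 72.3 and 28.9 CPM. The median sensory neuron held 20921 and 22302 UMIs, against 6519 and 7173 over all neurons. Neurons with 5 or more UMIs of Gal, compared with those without any, had Ppef1, Scn7a and Scn10a among the 8 leading genes in both libraries. Scn10a encodes a sodium channel of pain-sensing neurons. It stood at 103 and 91.1 CPM in the Gal cells and at 1.38 and 2.17 CPM in the others. Prdm12, a regulator of such neurons, and Isl2 were also among the 8. Prdm12 is also a gene of the sensory limit.

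Cartpt and Vip were highest in autonomic neurons. Cartpt had 403 and 467 CPM there, and 687 and 803 CPM in the 73 and 151 neurons that met the autonomic limit and no other, of which 69.9% and 68.2% had a UMI. Its sensory level was 6.80 and 19.6 CPM. Neurons with 5 or more UMIs of Cartpt were led by Bmp3 and Ccnd1, and Egln3 and the cell cycle genes Mki67 and Ccna2 were among the 8 leading genes. Mki67 stood at 293 and 225 CPM in these cells and at 24.9 and 18.3 CPM in neurons without Cartpt. Vip had 96.5 and 46.9 CPM in autonomic neurons, and was found in 10 of 106 and 25 of 217 of them. In the neurons without a class it had 0 UMIs in the library labelled f/f and 1 in the library labelled f/w.

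Npy was found in autonomic and in inhibitory neurons. Autonomic neurons held 278 and 418 CPM, and inhibitory neurons 261 and 697 CPM. Those that met the autonomic limit alone held 492 (443 to 545) and 696 (656 to 738) CPM. Those that met the inhibitory limit alone held 298 (256 to 344) and 769 (721 to 820) CPM. Glutamatergic neurons held 20.4 and 29.4 CPM. Neurons with 5 or more UMIs of Npy were led by Dbh, Ddc, Gnb3 and Slc18a2, of which Dbh and Ddc encode enzymes of noradrenaline synthesis and Slc18a2 the vesicular monoamine transporter. Dbh stood at 273 and 212 CPM in them and at 24.6 and 24.3 CPM in neurons without Npy. Dbh is also a gene of the autonomic limit. Sst had 107 and 318 CPM in inhibitory and 85.2 and 49.7 CPM in autonomic neurons. Its distribution over the classes differed between the libraries: 58.1% of the neuronal Sst UMIs lay in neurons that met only the inhibitory limit in the library labelled f/w, and 12.2% in the library labelled f/f. The shares of the latter rest on few cells. Its neuronal Sst UMIs lay in 36 neurons, with 21.2% in 1 neuron and 43.1% in 6 neurons that met more than 1 limit.

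**Figure D5:**
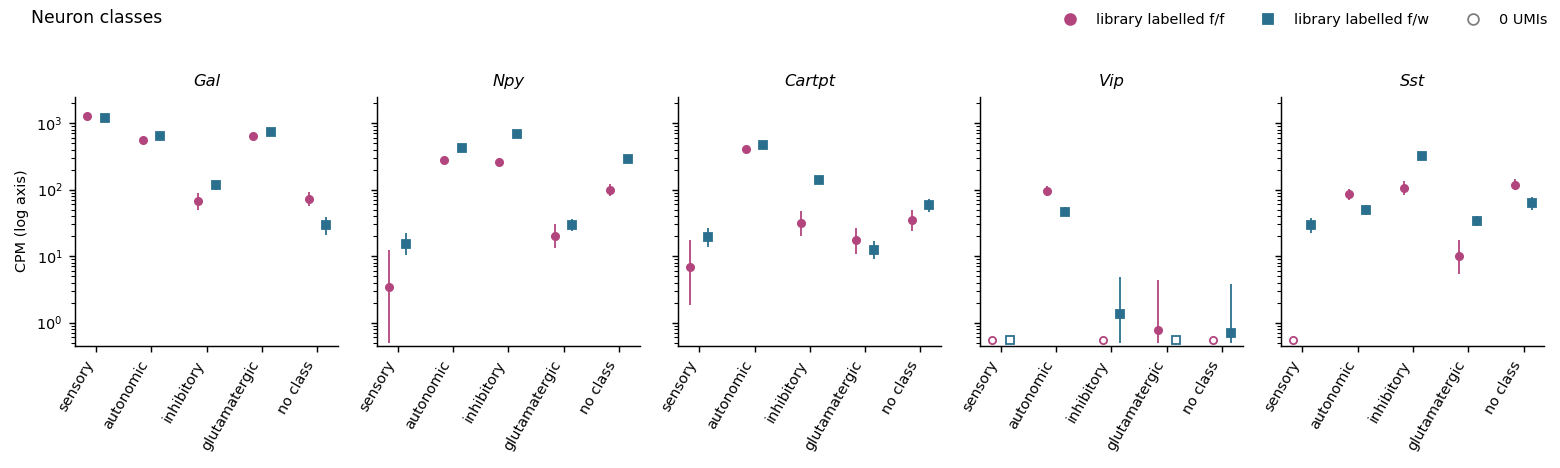
Level (CPM, log axis) of Gal, Npy, Cartpt, Vip and Sst in neuron classes, with exact Poisson 95% intervals cut at the lower end of the axis. Circles are the library labelled f/f, squares the library labelled f/w and open symbols 0 UMIs, and a neuron counts in every class whose limit it meets. Gal is highest in sensory neurons (1299.95 and 1187 CPM) and Cartpt and Vip in autonomic neurons, in both libraries.

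Most neurons made few of these transcripts. In the library labelled f/f 76.5% of neurons, and in the library labelled f/w 63.7%, had fewer than 5 UMIs of each of the 9 genes, and 19.6% and 30.1% had 5 or more UMIs of exactly 1 of them. Of the few cells with 5 or more UMIs of Vip, 4 of 6 and 5 of 8 also had 5 or more of Sst. The product of the shares of both genes among neurons gives 0.205 and 0.273 cells. Of the Sst cells, 6 of 16 and 14 of 29 also had 5 or more of Npy (product 1.16 and 4.57). Gal and Npy met in 1 and 5 cells (product 2.83 and 15.6), out of 39 and 99 Gal cells and 34 and 134 Npy cells. In the library labelled f/w, 8 of the 10 neurons with 5 or more UMIs of Nts also had 5 or more of Gal (product 1.16). In the library labelled f/f 1 of 3 did (product 0.249). The products take no account of depth. Vip cells had medians of 12355 and 19419.5 UMIs, against 6470.5 and 7116 in neurons without Vip. The 10 Nts cells had a median of 22892.5 UMIs, more than the 7129 of neurons without Nts.

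Neurons with 5 or more UMIs of Tac1 carried genes of connective tissue. Neurons with fewer UMIs of Tac1 were not compared in this way. The 7 and 10 neurons with 5 or more UMIs of Tac1 were led by Lrrc17, Bmp4, Egfl6 and Tnmd, and Prrx1, a regulator of limb mesenchyme, was among the 8 leading genes. Tnmd stood at 130.3 and 136 CPM in these cells and at 15.5 and 4.28 CPM in neurons without Tac1. Their median was 14124 and 17036 UMIs, against 6390 and 7005 in neurons without Tac1, and the part of doublets below the mesenchymal limit was not tested. Sensory neurons, in which Tac1 is known to be used, held 49.3 and 39.1 CPM, below the mesenchymal level. A UMI of Tac1 was found in 18.5% and 38.5% of these sensory neurons. Neurons without a class held 59.6 and 59.9 CPM of Tac1, with intervals that overlap those of the sensory neurons in both libraries. Of these neurons without a class, 6.71% and 10.2% had a UMI of Tac1.

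Npy-rich cells of the Schwann lineage were few. The 9 and 10 cells of this population with 5 or more UMIs of Npy were led by Prss56, Apcdd1 and Mlana, and Ptn and Pax3 were among the 8 leading genes. Prss56 is known from boundary cap cells, which give rise to Schwann cells, and Mlana from pigment cells. Prss56 stood at 260.0 and 136 CPM in the Npy cells, and at 0 and 15.0 CPM in cells without Npy.

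Between the libraries, the levels in neurons were compared for 10879 genes with at least 50 neuronal UMIs. Among these, 2.05% were past 2-fold in either direction. Of the 9 genes 1 was, Cck, with 5 and 49 UMIs, a number too small to weigh, and which genes were past the limit changed with the processing. Vip, at a log2 ratio of f/f over f/w of 0.99 (0.65 to 1.34), Nts at -0.96 (-1.49 to -0.45) and Npy at -0.92 (-1.04 to -0.79) lay just inside the limit. Sst, Tac1 and Penk differed by no more than counting error, with ratios of -0.14, -0.05 and 0.06. Gal (-0.35) and Cartpt (-0.34) were slightly higher in the library labelled f/w. With 1 library per genotype and labels in doubt, differences between embryos, libraries and genotypes cannot be told apart.

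Most of the listed genes for the making and release of peptides were highest in neurons. Of 14 genes for peptide processing and granules, 13 had enough UMIs to be compared and 10 of them were at least 4-fold higher in neurons in both libraries, beside 7.73% of all genes. They were Pcsk2, Pcsk1n, Scg2, Scg3, Scg5, Chga, Chgb, Vgf, Cadps and Syt4. Chgb, a granule protein, stood at 346 and 332 CPM in neurons and at 2.05 and 1.60 CPM in blood vascular endothelium, the highest of the others. The other 3 did not pass. Cpe and Pam, which trim and amidate peptides, were higher in cartilage (269.9 and 303 CPM of Cpe) than in neurons (193 and 189.7 CPM), and Qpct was highest in the Schwann lineage. Of 25 receptor genes of the 9 peptides, 5 had enough UMIs and none passed 4-fold. Sort1, a sorting receptor that also binds neurotensin, had the highest level of the 5, with 34.3 and 24.6 CPM in neurons and 66.1 and 29.2 CPM in the Schwann lineage. Of 34 further genes of neuropeptides and neuropeptide-like secreted proteins, 15 had enough UMIs and 4 passed: Pnoc, Adcyap1, Npff and Nxph1. Of the 4, Nxph1 is not an established neuropeptide gene. Of these, Pnoc had the highest neuronal level, 71.8 and 47.6 CPM. Calca, which encodes calcitonin and a sensory neuropeptide, was highest in immune cells, at 65.4 and 107 CPM.

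The genes most like each of the 9 were sought among 14477 genes by Pearson's r of log2(CPM + 1) over 20 points (10 populations in 2 libraries), as a description. The points of a library share its depth and its free RNA. Nts was most like Mmrn1 (r = 0.87), which is part of the limit that sets the lymphatic cells, and next Serpina3g (0.87) and Angpt2 (0.86). Cck was most like the muscle genes Mrln, Myh8 and Cap2 (0.95, 0.95 and 0.94), Tac1 like Itga11, Tnn and Dio3 (0.91, 0.88 and 0.88), and Penk like P4ha2, Fmod and Vasn (0.92, 0.92 and 0.91), several of which encode matrix proteins or enzymes that modify collagen. Sst was most like Rims2, Gal and Resp18 (each 0.96), Npy like Syt4 and Gabra2 (0.96 and 0.95), and Cartpt like Lrp11 and Rbfox3 (0.98 and 0.97). Gal was most like Hs3st5, Hand2os1 and 5330434G04Rik (each 0.97 or 0.98), and Vip like Cacng2, Htr7 and Mmp24 (each 0.98).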

How the data were processed

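The authors had made 3' single-cell libraries (10x v3.1), mapped reads to mm10 with Cell Ranger and deposited an aggregated table of raw UMI counts with one summary per sample. The file header names Cell Ranger 5.0.0 and the submitters' processing notes list 3.1.0. Aggregation had thinned the reads of the deeper library. Deposited totals were 156093779 and 128116615 UMIs. Barcodes were tied to a library by the number of cells in its summary. Cells over 10% mitochondrial UMIs, or beyond 2 SD of the log10 UMI or gene number of their library, were left out. No doublet caller was run. A few genes are not reported here, and the limits of the neuron classes were set without them. Counts were summed per population and library and given as CPM, with exact Poisson, Clopper-Pearson and count-split intervals (SciPy 1.17.1). With 1 library per genotype no test was made. Named genes were the 9 genes, markers, the 3 most alike genes and list genes past 4-fold or of highest level. Genes leading high cells, the groups within mesenchyme, muscle and lymphatic endothelium, the count of a neuron in every class it met, and the level carried from the highest population were chosen after values were seen. The 9 genes, limits and lists were chosen with earlier results of these data known. Ratios and intervals were tested on simulated sums with counting error only. UMIs that lie together in single cells were not simulated, so the intervals were not tested for that. Alternatives are given in the closing section.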

Additional observations from a re-analysis of the deposited data

Results flagged for a closer look

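Nts in blood vascular endothelium differed in direction between the libraries when set against all other kept cells: its log2 ratio was 0.54 in the library labelled f/f and -1.32 in the library labelled f/w. The other kept cells include the lymphatic endothelium, which made up 1.18% and 4.54% of the kept cells. The difference was not tested, since there was 1 library per genotype.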

How the results depend on the processing

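The number of genes highest in neurons stayed at 5 under all 10 alternatives. The number at least 4-fold higher in neurons was 4 or 5, the lower without the 10 cells richest in the gene, and 5 at 2-fold. The pairs above the level carried by neuron RNA numbered between 16 and 27 (19 without Gap43 in the share, chosen after seeing the data) except in 2 settings that leave fewer UMIs: 9 with cells thinned to 2000 UMIs and 9 without the 10 cells richest in the gene. The number of genes past 2-fold between libraries in neurons, 1 as reported, was the least stable, and so were the genes. At a neuron limit of 3 UMIs the 1 gene was Nts in place of Cck. The number was 2 (Cck and Vip) without the 2 SD limits, with cells thinned, with haemoglobin, mitochondrial and ribosomal protein genes left out of the totals, and without shared barcodes (chosen after seeing the data). It was 3 at a neuron limit of 10 UMIs (Nts, Cck and Vip), with cells of 2 or more populations kept (Nts, Npy and Cartpt) and with cells weighted alike (Npy, Cck and Vip). It was 4 at a mitochondrial limit of 5% (Nts, Cck, Gal and Vip), without the 10 richest cells (Sst, Npy, Tac1 and Vip) and at 1.5-fold (Nts, Npy, Cck and Vip). Ratios of single genes were recomputed 346 times under the alternatives. Of these values, 203 stayed inside the interval of the ratio as reported and 137 moved outside it. In all, 6 ratios changed sign. Cck in neurons of the library labelled f/w against other cells fell to -0.24 at a limit of 10 UMIs and -3.45 without the 10 richest cells. Nts in neurons of the library labelled f/f against other cells was 0.0046 with cells of 2 or more populations kept. Between libraries, Cck turned to 0.94 in that setting, Nts to 0.0449 with cells thinned, and Vip to -3.20 without the 10 richest cells. Leaving out 10 cells took away most neurons with a UMI of Vip or Cck. In the library labelled f/f, 458 of 469 neurons had no Vip, and in the library labelled f/w 839 of 851 had no Cck. The cause was not tested. No replicate could be left out, because each genotype had 1 library.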
